A study of Mus musculus with 5 samples.

Results

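The genes described here are 9 genes of extracellular matrix proteins, Cthrc1, Tnn, Fn1, Fmod, Eln, Npnt, Postn, Comp and Col8a2, measured by single-cell RNA sequencing in mouse femur marrow. They were picked because their levels were higher after bone marrow ablation in these same libraries, so the difference between ablated and uninjured libraries is a property of the choice and is given as a description. They are 9 of 30099 gene symbols, and all 9 were detected in the stromal cells of all 5 libraries. What the choice did not fix is which stromal cells held the RNA, how the 9 genes differed among themselves, and how the ablated libraries differed from each other.

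Marrow ablation empties the medullary cavity, after which stromal cells proliferate, lay down a provisional matrix and form woven bone that is later resorbed. Fibronectin, the product of Fn1, is an early scaffold of such a matrix and is bound by integrins. Matricellular proteins such as periostin and the tenascins modify how cells hold to it, fibromodulin and cartilage oligomeric matrix protein act on the assembly of collagen fibrils, and elastin and collagen VIII give elastic and sheet-like networks.

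All 5 groups were Lepr-cre; R26R-tdTomato mice, in which cells that have expressed the leptin receptor gene, and their descendants, carry a red fluorescent reporter, and all libraries were made from cells sorted for that reporter. The aged-injury group was 18 months old, 1 week after 1 ablation. The exhausted group was 15 weeks old with ablations at 9 and 13 weeks of age, and the naive group was 15 weeks old with 1 ablation at 13 weeks. The aged group was 18 months old and the control group 15 weeks old, both without surgery. The distal growth plate and the proximal end of each femur had been cut away before cells were released. Each group was 1 library, and the labels give neither the number of animals nor a batch. No comparison between groups has a replicate, so no test and no p-value is given. Intervals are 95% intervals and cover counting error only. They are too narrow where few cells held most of the molecules of a gene.

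After filtering, 19497, 6277, 5242, 7560 and 9253 cells were kept in aged-injury, exhausted, naive, aged and control, from deposited totals of 224155538, 68170277, 58895655, 62179497 and 95397522 unique molecular identifiers (UMIs, each 1 captured RNA molecule). Stromal cells made up 93.8%, 45.9% and 70.7% of them in aged-injury, exhausted and naive, against 89.2% and 77.1% in aged and control, and blood cells 1.86%, 50.9%, 23.8%, 9.64% and 22.1% in aged-injury, exhausted, naive, aged and control, although the sort was for the reporter. The reporter transcript was at 70.7, 66.4 and 67.4 counts per 1000000 UMIs of the same cells (CPM) in the stroma of aged-injury, exhausted and naive, against 82.6 and 88.3 in aged and control, and median UMIs per stromal cell were 9567, 6471, 7068, 6534 and 8306 in aged-injury, exhausted, naive, aged and control. Summed over the 10 pairs of libraries, 18 barcodes of kept cells were shared. Stromal cells were grouped by clustering that left out the 9 genes, and classes were named from markers that include none of them. Reticular-like cells, the Cxcl12-rich stroma around blood vessels, were 61.9%, 59.6% and 43.8% of the stroma in aged-injury, exhausted and naive, against 78.1% and 79.2% in aged and control, and preosteoblast-like cells 14.6%, 17.4%, 27.1%, 8.17% and 9.52% in aged-injury, exhausted, naive, aged and control. Chondrocyte-like cells numbered 174, 3 and 2 in aged-injury, exhausted and naive, against 0 and 0 in aged and control. A cluster led by Thbs4 and Ccn3 (479, 68 and 35 cells in aged-injury, exhausted and naive, against 75 and 158 cells in aged and control) had 11 of 12 fibroblast markers and 2 of 5 tendon markers and was left unnamed, as was a cluster led by Ptprn and Masp1 with high Acta2 and Hmga2 (799, 12, 69, 2 and 4 cells in aged-injury, exhausted, naive, aged and control). Levels are given below for a class with at least 30 cells in a library.

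Summed over all stromal cells, each of the 9 genes was higher in the 3 ablated libraries than in both uninjured ones, which the choice fixed. How many of all genes had that order was not counted, so it is a description only. In naive against control, 9 of 9 were at least 2-fold higher, where 4.96% of 10776 genes, those reaching 5 CPM in naive or control, were at least 2-fold higher and 1.78% at least 2-fold lower. In exhausted against control, 9 of 9 were, where 2.15% of genes were. In aged-injury against aged, 9 of 9 were, where 6.20% of genes were at least 2-fold higher and 2.51% lower. The median log2 ratio of the 9 genes was 2.46, 2.34 and 3.36 in these 3 comparisons, beside 0.15, 0.06 and 0.09 over all genes. The first 2 comparisons share the control library. A sum over the stroma cannot tell more cells of a producing class apart from more RNA per cell, so each gene is followed below into the classes.

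**Figure D1:**
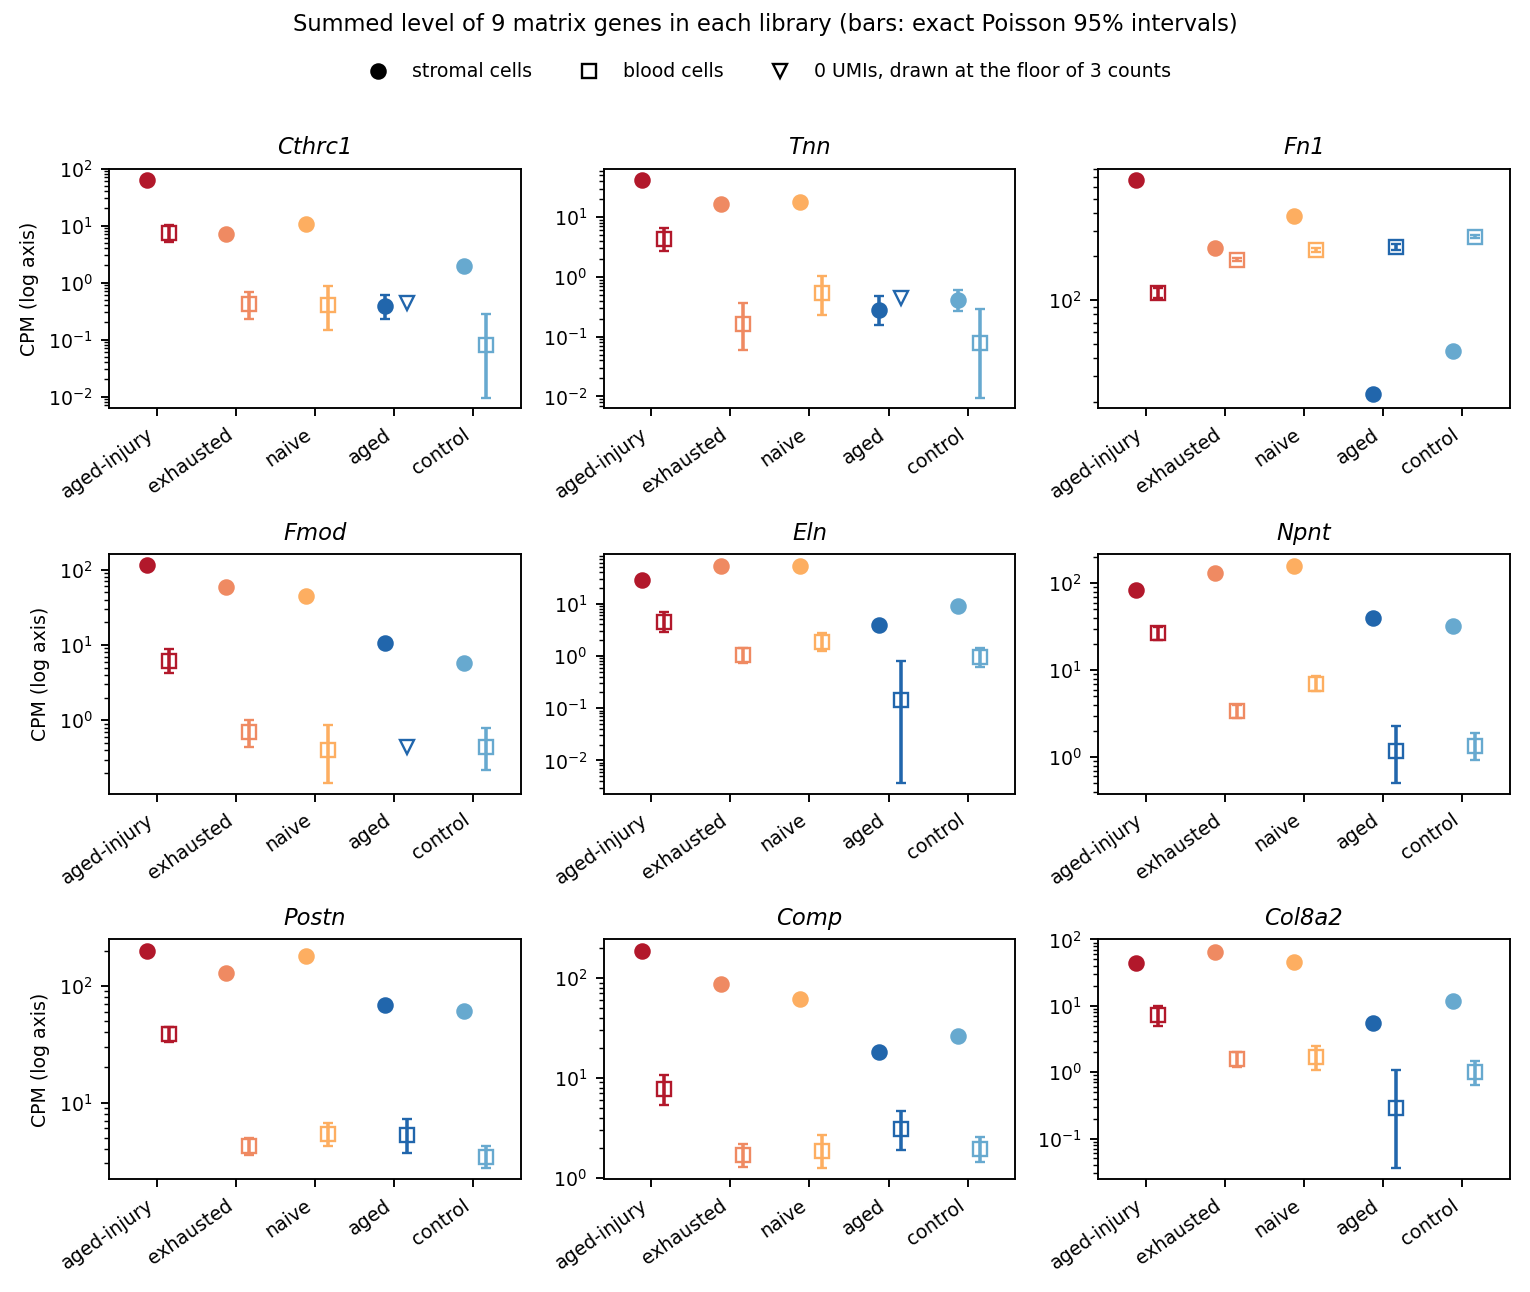
Summed level of each gene in CPM (log axis) in the stromal cells (filled circles) and blood cells (open squares) of each library, with exact Poisson 95% intervals; open triangles mark 0 UMIs and are drawn at the floor of 3 counts. For each gene the stromal circles of aged-injury, exhausted and naive lie above those of aged and control, and for Fn1 the blood squares stay between 112 and 274 CPM in every library.

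The adhesive proteins of the set are fibronectin and nephronectin, the product of Npnt, a basement membrane ligand of integrin alpha8 beta1. Fn1 was at 673 CPM in aged-injury, 227 in exhausted, 379 in naive, 22.8 in aged and 44.8 in control stroma. Its ratio was 29.6 (27.9 to 31.4) in aged-injury over aged and 8.45 (8.11 to 8.81) in naive over control. At equal depth, with each cell thinned to 3000 UMIs, Fn1 was found in 29.7%, 21.5% and 33.0% of stromal cells in aged-injury, exhausted and naive, against 3.25% and 5.94% in aged and control, and without thinning in 41.9%, 28.8%, 43.2%, 4.64% and 9.89% in aged-injury, exhausted, naive, aged and control. Thinning left out 2552, 596 and 638 stromal cells with fewer UMIs in aged-injury, exhausted and naive, against 1358 and 555 in aged and control. Without thinning, Fn1 was also found in 22.9%, 4.19% and 6.58% of erythroid-, neutrophil- and B lineage-like cells of aged-injury, exhausted and naive. These cells are taken as a measure of free RNA, and their shares were 1.58% and 2.82% in aged and control. Detection was thus wide in exhausted and naive stroma, while part of it in aged-injury cannot be told apart from free RNA. The RNA of Fn1 was less concentrated than that of most of the set. The top 1% of cells held 34.2%, 30.4% and 23.4% of its UMIs in aged-injury, exhausted and naive.

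Reticular-like cells showed a larger Fn1 ratio than the osteogenic classes. In them Fn1 was at 114, 49.3, 103, 2.44 and 5.65 CPM in aged-injury, exhausted, naive, aged and control, a ratio of 46.8 (38.4 to 57.6) in aged-injury over aged, 8.72 in exhausted over control and 18.3 (16.1 to 20.8) in naive over control. Preosteoblast-like cells held 679, 426 and 617 CPM in aged-injury, exhausted and naive, against 98.8 and 214 CPM in aged and control, with ratios of 6.87 and 2.88 in aged-injury over aged and naive over control. Osteoblast-like cells held 526, 578 and 739 CPM in aged-injury, exhausted and naive, against 438 and 286 CPM in aged and control, so that mature osteoblasts carried Fn1 in uninjured marrow too, with ratios of 1.20 in aged-injury over aged and 2.58 in naive over control, below those of the other 2 classes. In exhausted over control the ratio was close in both bone-forming classes, 2.02 (1.70 to 2.40) in osteoblast-like and 1.99 (1.86 to 2.12) in preosteoblast-like cells. The reticular-like class was made up of different clusters in different libraries. The cluster led by Ces1g was 18.9%, 18.0% and 7.08% of the class in aged-injury, exhausted and naive, against 56.2% and 67.4% in aged and control, and the cluster led by Cbln2 was 35.9% to 40.2% of it in the ablated libraries, against 8.09% in aged and 8.11% in control. Inside each of these clusters Fn1 was again higher in the ablated libraries. It was not always above the level in erythroid-, neutrophil- and B lineage-like cells, taken as a measure of free RNA. That measure was 87.7, 12.4 and 17.4 CPM in aged-injury, exhausted and naive. It was at 22.1, 17.3 and 15.9 CPM in the Ces1g-led cluster of aged-injury, exhausted and naive, against 2.34 and 5.46 CPM in aged and control. In the Cbln2-led cluster it was at 60.7, 46.2 and 77.3 CPM in aged-injury, exhausted and naive, against 1.91 and 4.77 CPM in aged and control. In the cluster led by Nrg3 it was at 174, 56.0 and 140 CPM in aged-injury, exhausted and naive, against 1.90 and 7.50 CPM in aged and control. The clusters led by Cxcl9 and by Igfbp4 showed the same order of ablated above uninjured, with 243 CPM in aged-injury against 1.16 in aged, and 61.5 against 8.11. The aged-injury levels of the Ces1g-, Cbln2- and Igfbp4-led clusters and the naive level of the Ces1g-led cluster lay below the measure of their library. The exhausted level of the Ces1g-led cluster overlapped it in its interval (12.5 to 23.2 CPM, against 10.7 to 14.2). These levels cannot be placed above background. Nor are they shown to be background, since the measure was too high for some stromal cells. In aged-injury the Ces1g-led cluster was at 22.1 CPM, against a measure of 87.7 CPM. There the Nrg3- and Cxcl9-led clusters lay above the measure, as the Cbln2-, Nrg3-, Cxcl9- and Igfbp4-led clusters did in naive and exhausted. The Cxcl9-led cluster had 14 cells in exhausted. The share of Fn1 UMIs from reticular-like cells was still only 8.92%, 12.7% and 11.1% in aged-injury, exhausted and naive, against 8.78% and 10.2% in aged and control, since the other classes named here held a higher level.

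Where the largest amounts of Fn1 came from differed between the ablated libraries. In aged-injury, 29.6% of stromal Fn1 UMIs came from the Ptprn- and Masp1-led cluster, at 1826 CPM, and 26.1% from the 174 chondrocyte-like cells, at 7387 CPM. In naive, the Ptprn- and Masp1-led cluster was at a close level, 1779 CPM, but gave 13.3%, and preosteoblast-like cells gave 53.6%. In exhausted, preosteoblast-like cells gave 44.5% and the Thbs4- and Ccn3-led cluster 29.6%. Blood cells also held Fn1, at 112, 190 and 220 CPM in aged-injury, exhausted and naive, against 233 and 274 CPM in aged and control. Of the Fn1 UMIs in blood cells, 55.4% lay in a cluster led by Ms4a8a and Ccr2 (1834 CPM over all libraries) and 31.3% in granulocyte precursor-like cells (453 CPM). The free RNA measure of Fn1 in uninjured marrow was 4.30 CPM in aged and 6.95 CPM in control. Taken as a whole class, reticular-like cells lay above that measure in the 3 ablated libraries, by the least in aged-injury (114 against 87.7 CPM), and below it in aged and control, where their level cannot be placed above background. Signs of blood RNA in the stroma differed between libraries as well, and their part in these levels was not tested. The leukocyte gene Ptprc was at 0.308, 7.55 and 2.68 CPM in stromal cells of aged-injury, exhausted and naive, against 1.33 and 4.31 CPM in aged and control, and 9 monocyte and macrophage markers other than Vcan summed to 11.6, 41.4, 25.4, 17.8 and 23.3 CPM in aged-injury, exhausted, naive, aged and control.

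Npnt was at 84.0, 132, 159, 39.7 and 32.0 CPM in aged-injury, exhausted, naive, aged and control stroma. Npnt and Eln were the 2 genes of the set that were more than 1.5-fold higher in both younger ablated libraries than in aged-injury. The ratio of Npnt was 2.11 (2.02 to 2.22) in aged-injury over aged against 4.98 (4.73 to 5.24) in naive over control. Preosteoblast-like cells gave 45.2% to 57.8% of its UMIs in the 5 libraries, at 228, 291 and 278 CPM in aged-injury, exhausted and naive, against 232 and 164 CPM in aged and control, so within this class aged-injury and aged differed by 0.986 (0.927 to 1.05). In reticular-like cells Npnt was at 46.1, 71.1 and 109 CPM in aged-injury, exhausted and naive, against 17.5 and 13.9 CPM in aged and control, a ratio of 2.63 (2.43 to 2.85) in aged-injury over aged and 7.83 (7.15 to 8.57) in naive over control. Blood cells held 26.5, 3.37 and 7.01 CPM in aged-injury, exhausted and naive, against 1.17 and 1.35 CPM in aged and control, below the reticular-like level in each library. Npnt was also present outside the stroma: endothelial cells held 306, 341 and 344 CPM in aged-injury, exhausted and naive, against 87.2 and 113 CPM in aged and control.

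Among the matricellular genes, Tnn encodes tenascin-N (tenascin-W), a tenascin known from the periosteum and other bone-forming connective tissue. It had 41.8, 16.5, 18.0, 0.282 and 0.409 CPM in aged-injury, exhausted, naive, aged and control stroma, from 8704, 381, 589, 14 and 26 UMIs. It was close to absent from both uninjured libraries, and its ratios, 148 (88.3 to 271) in aged-injury over aged and 43.9 (29.7 to 67.8) in naive over control, ranked 12 of 10710 and 4 of 10776 genes. Few cells carried it. The top 1% of stromal cells held 84.0%, 98.2% and 94.4% of its UMIs in aged-injury, exhausted and naive, and the majority lay in 48, 3 and 5 cells. The Thbs4- and Ccn3-led cluster gave 62.0%, 51.4% and 52.1% of them, at 766, 225 and 726 CPM, against 12.4 CPM in aged and 0 UMIs in control for the same cluster (which allows up to 1.94 CPM by the floor of 3 counts). Within preosteoblast-like cells Tnn was at 19.1, 23.0 and 17.2 CPM in aged-injury, exhausted and naive, against 0.206 and 1.68 CPM in aged and control. In reticular-like cells it was at 1.29 CPM in aged-injury and 0.973 in naive, beside 4.34 and 0.534 CPM in blood cells. The naive blood value rests on 8 UMIs, with an interval of 0.231 to 1.05 CPM that spans 0.973 CPM. Neither reticular-like value can be placed above background.

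The sequence around the Tnn start is shown because Tnn had the highest naive over control ratio of the 9 genes. It is the RefSeq promoter on GRCm38.p6, an older build than the GRCm39 of the submitters' notes, at chr1:160153526-160153825 on the minus strand, 250 bases before the start to 50 after it, with the capitals marking the 1 match to the motifs searched, a TEAD motif GGAATG that begins at -160:
Tnn: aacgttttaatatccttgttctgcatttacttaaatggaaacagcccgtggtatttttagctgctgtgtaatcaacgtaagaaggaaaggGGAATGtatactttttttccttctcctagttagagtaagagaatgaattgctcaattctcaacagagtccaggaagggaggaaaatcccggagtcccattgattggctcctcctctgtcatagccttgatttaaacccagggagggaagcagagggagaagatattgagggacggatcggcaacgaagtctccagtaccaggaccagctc
The promoters of the set were searched on both strands for 5 motifs, none of which contains another. The core promoter box TATAAA is held by 13.6% of all 32851 RefSeq promoters of 300 bases. The AP-1 motif TGANTCA is held by 7.81% of them and the RUNX motif TGTGGT by 16.8%. The TEAD motif is held by 14.7%, and the short SMAD box, spelled CAGAC, by 49.6%. Such a match is a run of letters, not a measured binding site. Of the 9 genes, 5 had a promoter in the table used: Tnn, Fmod, Postn, Npnt and Col8a2. The table held no entry for Cthrc1, Fn1, Eln and Comp. The single Col8a2 entry and both Npnt entries matched no motif, which says only that these letters are not in those windows.

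Postn encodes periostin, which is abundant in periosteum and tendon and binds fibronectin and collagen I. It was at 200, 128, 180, 68.7 and 60.6 CPM in aged-injury, exhausted, naive, aged and control stroma, with ratios of 2.92 (2.82 to 3.02) in aged-injury over aged and 2.98 (2.86 to 3.10) in naive over control. The class levels did not follow these sums. Preosteoblast-like cells, which gave 51.9%, 60.3% and 65.1% of Postn UMIs in aged-injury, exhausted and naive, against 85.2% and 84.2% in aged and control, held 626, 326, 357, 597 and 453 CPM in aged-injury, exhausted, naive, aged and control. That is a ratio of 1.05 (1.01 to 1.09) in aged-injury over aged and 0.787 (0.751 to 0.825) in naive over control, so per UMI of the class Postn was about level in the first pair and lower after ablation in the second. The makeup of the class differed, however. Its cluster led by Spp1 was 47.9% and 37.6% of the class in aged-injury and aged, and 27.6% and 54.3% in naive and control. Inside that cluster Postn was lower in aged-injury than in aged and higher in naive than in control. The class ratios thus cannot be told apart from this makeup. Osteoblast-like cells held 311, 720 and 497 CPM in aged-injury, exhausted and naive, against 906 and 353 CPM in aged and control, which is 0.343 (0.307 to 0.384) in aged-injury over aged and 1.41 (1.22 to 1.63) in naive over control. The highest osteoblast-like level was that of aged, an uninjured library. By contrast the Thbs4- and Ccn3-led cluster held 956, 643 and 1549 CPM in aged-injury, exhausted and naive, against 37.3 and 62.8 CPM in aged and control, with ratios of 25.7 (17.2 to 40.1) and 24.7 (19.9 to 30.9). Postn UMIs from that cluster were 16.2%, 19.0% and 11.1% of the stromal total in aged-injury, exhausted and naive, against 0.704% and 2.52% in aged and control. Reticular-like cells held 15.1, 5.71 and 11.4 CPM in aged-injury, exhausted and naive, against 2.59 and 2.71 CPM in aged and control, beside 38.7, 4.20, 5.34, 5.26 and 3.41 CPM in blood cells of aged-injury, exhausted, naive, aged and control, so the reticular-like level was under that background in aged-injury, aged and control. In exhausted the level of 5.71 CPM lay inside the 4.11 to 6.42 CPM interval of erythroid-, neutrophil- and B lineage-like cells. It cannot be placed above background there either. RefSeq lists 2 starts for Postn. The one shown, because it is the one of the 7 windows of the set with a match to TATAAA, lies at chr3:54360857-54361156 on the plus strand, with the match in capitals beginning at -26:
Postn: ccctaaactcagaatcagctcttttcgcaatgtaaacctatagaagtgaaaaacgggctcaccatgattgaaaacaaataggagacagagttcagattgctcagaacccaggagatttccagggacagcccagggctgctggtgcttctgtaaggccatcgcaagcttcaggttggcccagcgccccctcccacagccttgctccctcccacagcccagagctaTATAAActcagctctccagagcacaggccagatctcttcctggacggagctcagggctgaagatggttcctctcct
The other start, at chr3:54359017-54359316, holds CAGAC at -191 and no other motif of the 5.

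Comp encodes cartilage oligomeric matrix protein, a thrombospondin of cartilage and tendon. It was at 187, 87.2, 61.7, 18.2 and 26.0 CPM in aged-injury, exhausted, naive, aged and control stroma, the largest spread between ablated libraries after Cthrc1. In aged-injury, 73.6% of its UMIs came from the 174 chondrocyte-like cells, at 5785 CPM, and the majority from 54 cells. The summed level of 13 chondrocyte markers in the stroma was 2585, 211 and 311 CPM in aged-injury, exhausted and naive, against 157 and 143 CPM in aged and control, and the origin of these cells was not tested. Without that cluster the aged-injury over naive ratio of Comp was 0.861, against 3.03 with it. Preosteoblast-like cells held 81.8, 100 and 77.9 CPM in aged-injury, exhausted and naive, against 91.6 and 122 CPM in aged and control, a ratio of 0.893 (0.808 to 0.989) in aged-injury over aged and 0.641 (0.582 to 0.705) in naive over control, both under 1. Reticular-like cells held 19.2, 48.2 and 39.1 CPM in aged-injury, exhausted and naive, against 3.90 and 7.08 CPM in aged and control, a ratio of 4.94 (4.20 to 5.84) and 5.52 (4.82 to 6.33), with 7.66, 1.69, 1.87, 3.07 and 1.94 CPM in blood cells of aged-injury, exhausted, naive, aged and control. The adipocyte-like cells of exhausted were at 992 CPM from 49 cells and gave 22.5% of the Comp UMIs of that library, against 74.7 CPM in aged-injury and 77.1 in naive.

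Cthrc1 encodes collagen triple helix repeat containing 1, a secreted protein known from injured arteries and from activated fibroblasts and osteoblasts. It was at 63.4, 7.20, 10.6, 0.383 and 1.92 CPM in aged-injury, exhausted, naive, aged and control stroma, from 13196, 166, 347, 19 and 122 UMIs. Aged-injury was above naive by 2.58 on the log2 scale, the largest such difference of the 9 and rank 23 of 10845 genes. Its ratio to aged was 166 (106 to 275), against 5.52 (4.48 to 6.84) for naive over control. Osteoblast-like cells gave 67.4%, 52.4% and 53.3% of its UMIs in aged-injury, exhausted and naive, against 57.9% and 80.3% in aged and control, at 553, 165, 184, 29.8 and 117 CPM in aged-injury, exhausted, naive, aged and control. There were 833 such cells in aged-injury and 47, 72, 40 and 66 in the others. Within that class the ratio was 18.6 (10.4 to 37.3) in aged-injury over aged and 1.58 (1.23 to 2.04) in naive over control, so in the young pair osteoblast-like cells carried the gene with or without ablation and differed by less than 2-fold. A further source was the Thbs4- and Ccn3-led cluster, at 313, 61.9 and 225 CPM in aged-injury, exhausted and naive, against 10.9 and 7.77 CPM in aged and control. In reticular-like cells Cthrc1 had 1.45 CPM in aged-injury, below the 7.45 CPM of blood cells, and no UMI in exhausted, aged or control, which allows up to 0.223, 0.0740 and 0.0585 CPM.

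Fmod encodes fibromodulin, a leucine-rich proteoglycan that binds collagen fibrils in tendon and cartilage. It was at 115, 58.9, 44.6, 10.5 and 5.82 CPM in aged-injury, exhausted, naive, aged and control stroma. Its ratio was 10.9 in aged-injury over aged, 10.1 in exhausted over control and 7.66 in naive over control. Most Fmod UMIs of 4 libraries came from the Thbs4- and Ccn3-led cluster, which gave 50.8%, 70.8% and 61.1% of its UMIs in aged-injury, exhausted and naive, against 82.0% and 33.5% in aged and control, at 1723, 1103, 2112, 664 and 80.3 CPM in aged-injury, exhausted, naive, aged and control. Unlike Tnn and Postn, Fmod was thus also high in that cluster in aged marrow, 8.28-fold (6.76 to 10.2) over control, but 205 of the 522 stromal Fmod UMIs of aged came from 1 cell. In aged-injury a further 30.7% came from chondrocyte-like cells, at 1481 CPM. In naive the majority of Fmod UMIs lay in 4 cells, 1 of which held 337. The promoter is shown because it is the one of the set with a SMAD box in both orientations, at chr1:134037004-134037303 on the plus strand, with the capitals at -195 (GTCTG, the reverse strand) and -148 (CAGAC):
Fmod: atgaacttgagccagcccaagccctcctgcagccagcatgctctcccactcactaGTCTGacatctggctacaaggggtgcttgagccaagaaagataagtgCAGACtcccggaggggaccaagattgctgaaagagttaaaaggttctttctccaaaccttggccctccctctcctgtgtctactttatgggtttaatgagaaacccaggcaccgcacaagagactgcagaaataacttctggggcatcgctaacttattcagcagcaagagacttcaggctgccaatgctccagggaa

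Eln encodes tropoelastin, the core of elastic fibres. It was at 28.3, 52.2, 51.8, 3.99 and 9.20 CPM in aged-injury, exhausted, naive, aged and control stroma, and like Npnt it was lower in aged-injury than in both younger ablated libraries, with a ratio to naive of 0.547. In the ablated libraries most Eln UMIs came from a fibroblast-marked and a mural class. Reticular-like cells held 7.68, 5.57 and 14.1 CPM in aged-injury, exhausted and naive, against 2.71 and 4.50 CPM in aged and control. They gave 14.2%, 6.23% and 11.1% of Eln UMIs in aged-injury, exhausted and naive, against 55.6% and 39.5% in aged and control, where they were the largest source, in control just ahead of the 38.6% of the Thbs4- and Ccn3-led cluster. In the Thbs4- and Ccn3-led cluster Eln was at 335, 985 and 958 CPM in aged-injury, exhausted and naive, against 24.8 and 146 CPM in aged and control. Pericyte or smooth muscle-like cells held 368, 352, 789 and 193 CPM in aged-injury, exhausted, naive and aged, and numbered 22 in control, too few for a level. In naive this mural class gave 46.8% of Eln UMIs and in exhausted the Thbs4- and Ccn3-led cluster 71.4%. The UMIs of naive were concentrated, with the majority in 5 cells and 293 in 1 of them. Endothelial cells, which are not in these sums, held 231, 351 and 268 CPM in aged-injury, exhausted and naive, against 171 and 277 CPM in aged and control, with no order by ablation.

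Col8a2 encodes the alpha2 chain of collagen VIII, a short-chain collagen of sheet-like networks. It was at 44.4, 65.2, 46.0, 5.49 and 11.8 CPM in aged-injury, exhausted, naive, aged and control stroma, with ratios of 8.09 (7.17 to 9.16) in aged-injury over aged and 3.89 (3.57 to 4.26) in naive over control. In the Thbs4- and Ccn3-led cluster Col8a2 was at 445, 1032 and 861 CPM in aged-injury, exhausted and naive, against 151 and 349 CPM in aged and control, so control already carried Col8a2 there, and 71.9% of the control UMIs came from it. Preosteoblast-like cells held 73.4, 75.7 and 57.5 CPM in aged-injury, exhausted and naive, against 30.3 and 16.1 CPM in aged and control. In reticular-like cells the level was 17.1, 12.2 and 28.0 CPM in aged-injury, exhausted and naive, against 0.469 and 1.70 CPM in aged and control, a ratio of 36.5 (23.3 to 60.8) in aged-injury over aged and 16.5 (13.0 to 21.1) in naive over control. Blood cells held 7.24, 1.58 and 1.67 CPM in aged-injury, exhausted and naive, against 0.292 and 0.990 CPM in aged and control. The reticular-like level of Col8a2 was above that in the 3 ablated libraries, while in aged the blood value rests on 2 UMIs, with an interval of 0.0354 to 1.06 CPM that spans the reticular-like 0.469 CPM, so the aged level cannot be placed above background.

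**Figure D2:**
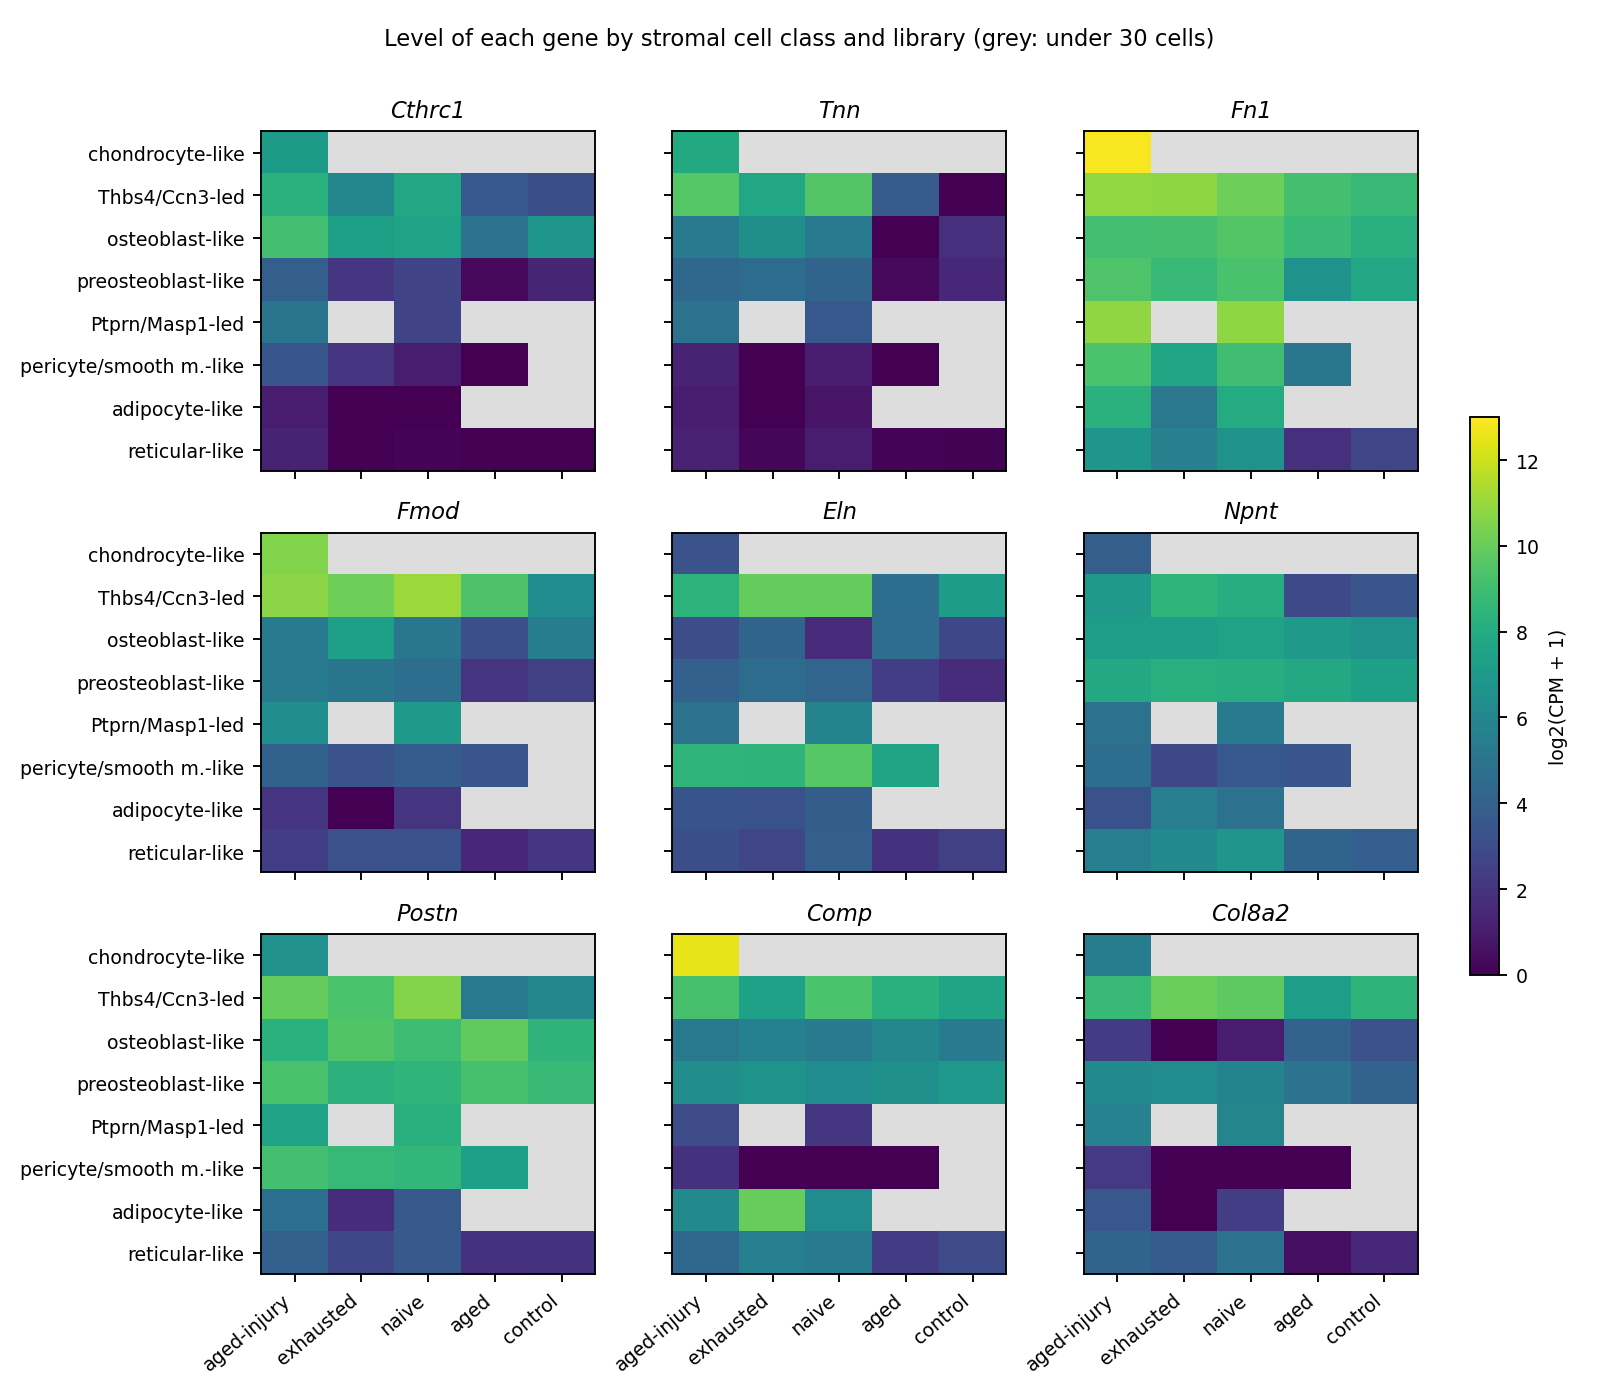
Level of each gene as log2(CPM + 1), by stromal class (rows) and library (columns), with classes under 30 cells in grey. The Thbs4- and Ccn3-led row is bright for most genes in the ablated libraries, the chondrocyte-like row stands out for Fn1, Comp and Fmod in aged-injury, and Cthrc1 and Tnn are dark in the reticular-like row in every library.

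**Figure D3:**
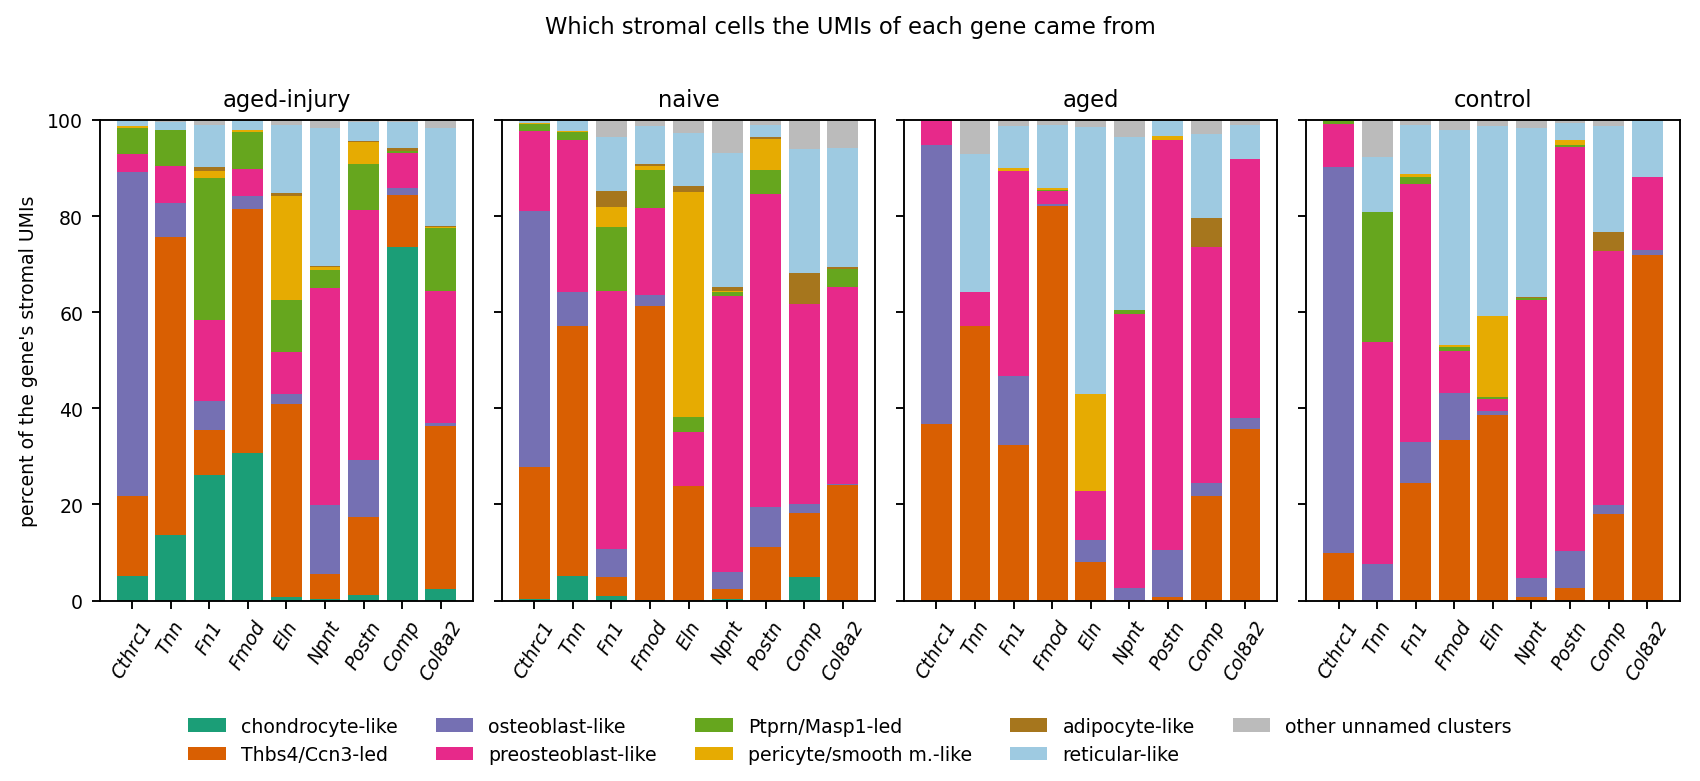
Share of the stromal UMIs of each gene (percent, stacked) that came from each stromal class, for aged-injury, naive, aged and control. Chondrocyte-like cells make up 73.6% of the Comp bar and 26.1% of the Fn1 bar in aged-injury, and preosteoblast-like cells 65.1% of the Postn bar in naive.

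The class makeup of the stroma differed between libraries, so each ratio was recomputed with the ablated library given the class shares of the uninjured one. For naive over control the ratio became 4.47 for Cthrc1, 51.2 for Tnn, 4.42 for Fn1, 10.6 for Fmod, 4.25 for Eln, 4.13 for Npnt, 1.58 for Postn, 2.22 for Comp and 4.31 for Col8a2. It was under 2-fold for Postn. For Tnn, Fmod and Col8a2 it rose above the plain 43.9, 7.66 and 3.89. The Thbs4- and Ccn3-led cluster, the main source of Tnn and Fmod in naive, was 1.29% of stromal UMIs there and 2.43% in control. Its naive levels rest on 35 cells, and its own makeup was not held equal. For aged-injury over aged the ratio became 28.5 for Cthrc1, 47.5 for Tnn, 8.92 for Fn1, 2.90 for Fmod, 3.61 for Eln, 1.67 for Npnt, 1.35 for Postn, 1.82 for Comp and 5.16 for Col8a2. It was under 2-fold here for Npnt, Postn and Comp. Only the 9 genes were recomputed, so no share over all genes stands beside these values. The choice fixed that the plain ratios were high. With class shares held equal, the aged-injury over aged ratio moved by a larger factor than the naive over control ratio for all 9 genes. The factor was largest for Cthrc1, with a plain ratio of 166 in aged-injury over aged against 28.5 at equal shares, and for Comp, with 10.3 against 1.82. With shares of single clusters held equal instead, Npnt went the other way. Its ratio moved from 4.98 to 3.10 in naive over control and from 2.11 to 1.37 in aged-injury over aged.

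**Figure D4:**
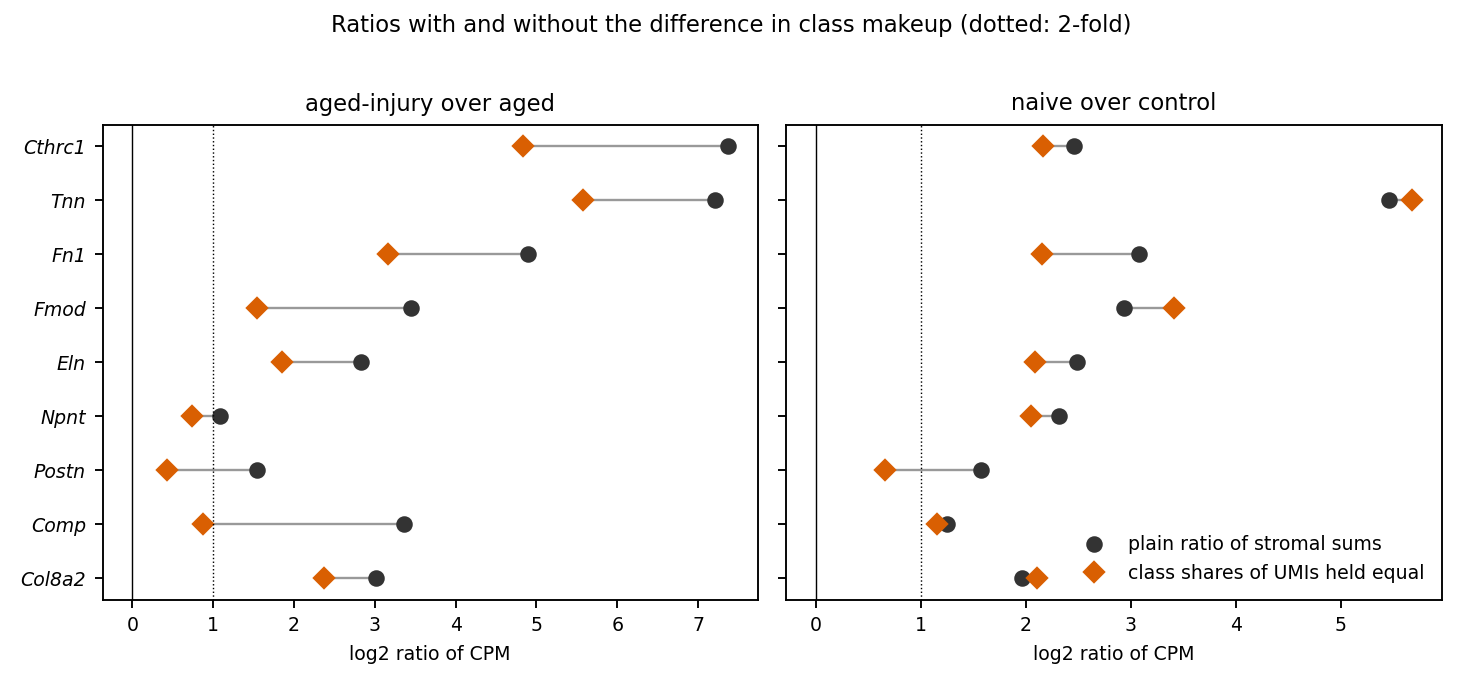
Log2 ratio of CPM for each gene in aged-injury over aged and in naive over control, as the plain ratio of stromal sums (circles) and with class shares of UMIs held equal (diamonds); the dotted line marks 2-fold. In aged-injury over aged the diamonds lie left of the circles for all 9 genes, with Npnt, Postn and Comp left of the dotted line, and in naive over control only Postn crosses it.

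Cells that held several of the genes at once were concentrated in the same clusters. With each cell thinned to 3000 UMIs, 9.96%, 8.26%, 10.2%, 1.30% and 1.41% of stromal cells had UMIs of 3 or more of the 9 genes in aged-injury, exhausted, naive, aged and control. That ablated libraries had more such cells follows in part from the choice of the genes. In the Thbs4- and Ccn3-led cluster the share was 64.6%, 64.2% and 65.7% in aged-injury, exhausted and naive, against 13.2% and 23.4% in aged and control. The 3 ablated libraries were close, but the 35 cells of naive give an interval of 47.8% to 80.9%. It was 28.0%, 31.7% and 25.8% in osteoblast-like cells of aged-injury, exhausted and naive, against 29.7% and 10.5% in aged and control, where the interval of aged overlapped those of the ablated libraries. In preosteoblast-like cells it was 24.3%, 22.1% and 21.2% in the ablated libraries, against 49 of 488 cells in aged and 7.21% in control. In reticular-like cells it was 1.30%, 1.75% and 3.18% in aged-injury, exhausted and naive, against 0.0228% and 0.0370% in aged and control, so these rarely carried several of the genes together. Among chondrocyte-like cells of aged-injury it was 75.7%.

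**Figure D5:**
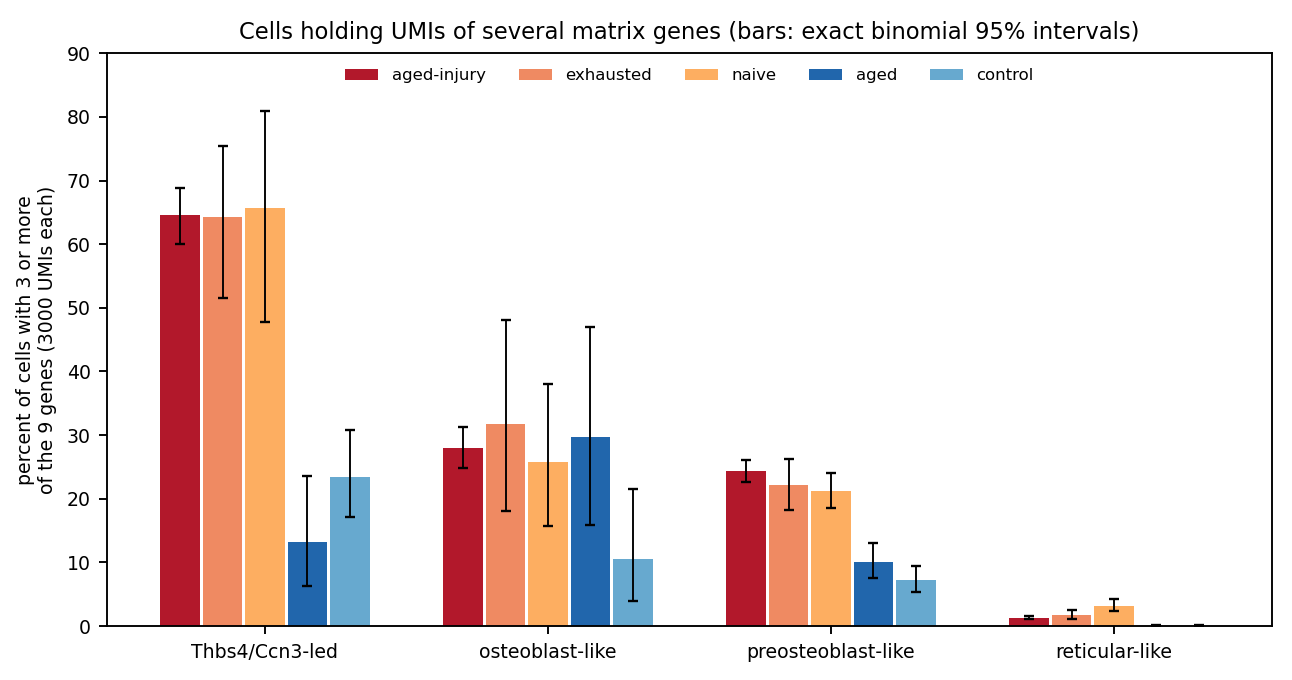
Percent of cells with UMIs of 3 or more of the 9 genes, each cell thinned to 3000 UMIs, in 4 stromal classes and the 5 libraries, with exact binomial 95% intervals. The Thbs4- and Ccn3-led cluster stands at 64.2% to 65.7% in the ablated libraries, against 13.2% in aged and 23.4% in control. The 9 genes were picked as higher after ablation.

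Pairs of genes showed the same concentration. In thinned stromal cells of aged-injury, Fmod was found in 54.0% of the 335 cells with a Tnn UMI and in 3.63% of the rest, and Cthrc1 in 44.5% and 3.56%. In naive, Fmod was found in 37.5% of the 40 cells with a Tnn UMI and 2.84% of the rest, and Postn in 67.5% and 15.6%. Cells that hold one of these genes share a cluster, so such shares describe clusters as much as pairs. Over 63 units, each a stromal cluster in 1 library with at least 50 cells, Pearson r of log2(CPM + 1) was highest between Cthrc1 and Tnn (0.84), Fn1 and Postn (0.81) and Tnn and Fmod (0.80), and lowest between Eln and Comp (0.04). The units share libraries and clusters and are not independent. Over the same units the gene most like Cthrc1 was Col5a2 (r = 0.882), a chain of the fibrillar collagen V. The closest was Mical2 for Fn1 (0.866), Unc5b for Postn (0.911), Aspn for Eln (0.885), Ndnf for Npnt (0.808), Lsp1 for Fmod (0.807), Scpep1 for Col8a2 (0.814), Olfml3 for Comp (0.791) and Cthrc1 for Tnn (0.836).

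The Thbs4- and Ccn3-led cluster was not of 1 kind. At a clustering resolution of 2.0 in place of 1.0 it split into fibroblast-like and tenocyte-like cells, and in aged-injury the 99 tenocyte-like cells held 3851 CPM of Fmod and 462 CPM of Cthrc1, against 1054 and 264 CPM in fibroblast-like cells. Eln went the other way, with 168 CPM in tenocyte-like against 391 in fibroblast-like cells of that library. The tendon gene Tnmd was at 283, 14.9, 383, 55.9 and 0.647 CPM in the unsplit cluster of aged-injury, exhausted, naive, aged and control, so its makeup differed between libraries, and levels within it cannot be told apart from that makeup.

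Between the ablated libraries the genes divided. In exhausted against naive, 0 of 9 were at least 2-fold higher, where 0.589% of genes were, and the ratios ran from 0.601 for Fn1 to 1.42 for Col8a2. Comp (1.41), Fmod (1.32) and Col8a2 were the higher ones, Eln was level at 1.01, and Cthrc1 (0.681), Postn (0.713) and Npnt (0.832) were lower beside Fn1. These orders depended on the cells counted. In reticular-like cells alone the exhausted over naive ratio was 0.435 (0.360 to 0.524) for Col8a2, 0.396 (0.299 to 0.520) for Eln, 0.958 for Fmod and 1.24 for Comp. Without the Thbs4- and Ccn3-led cluster it was 0.770 for Col8a2, 0.388 for Eln, 1.02 for Fmod and 1.55 for Comp. With class shares held equal, Comp (1.92) was the 1 gene of the 9 above 1. Exhausted stroma carried more signs of blood RNA, with 10 neutrophil markers summing to 14.8, 232, 120, 72.8 and 274 CPM in aged-injury, exhausted, naive, aged and control stroma. Their part in the ratios was not tested. In aged-injury against naive, 4 of 9, Cthrc1, Tnn, Fmod and Comp, were at least 2-fold higher, where 2.25% of genes were. Eln and Npnt were lower, with 0.547 and 0.528, and Col8a2 (0.965) and Postn (1.11) were close to level. Reticular-like cells taken alone turned that order round for Fmod and Comp, with 0.504 and 0.493. For Fmod the reticular-like level of aged-injury, 4.41 CPM, cannot be placed above background, since blood cells there held 6.21 CPM (4.19 to 8.86). Age and the time since surgery differ together between aged-injury and naive and cannot be told apart, and aged-injury was also the most deeply sequenced library.

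Between the uninjured libraries, which the choice did not set against each other, the 9 genes were low in both. In aged against control, 0 of the 7 genes with at least 5 CPM were at least 2-fold higher, where 0.686% of genes were. Of the 7, 2 were at least 2-fold lower, Eln (0.434) and Col8a2 (0.465), where 93 of 10357 genes were. Cthrc1 and Tnn were under 5 CPM in both libraries and were not counted. Their ratios were 0.200 (0.116 to 0.326) and 0.691 (0.333 to 1.37). Fn1 was at 0.508 and Comp at 0.703 of control. Fmod (1.81), Npnt (1.24) and Postn (1.13) were higher in aged. The ranks of Eln, Col8a2 and Fn1, 10301, 10285 and 10262 of 10357 genes, place them among the lowest ratios of that comparison.

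Other genes of the same matrix systems were taken from lists by protein family or function, drawn up with earlier results of these data known. They mostly did not share the size of the differences of the 9 genes after ablation. That gap follows in part from the choice, since the 9 were picked for being higher after ablation. Of 10 other network and short-chain collagens, 6 were at least 2-fold higher in aged-injury over aged and 7 in naive over control (median log2 1.53 and 1.48, beside 0.09 and 0.15 over all genes). Col10a1, the collagen of hypertrophic cartilage, was at 353 against 0.0202 CPM in aged-injury and aged. Col15a1 was 13.3-fold higher in naive than control, and Col14a1 was at 0.366. This was the list closest to the 9 genes in size of ratio. Of 21 elastic fibre and microfibril genes, 8 and 5 were at least 2-fold higher and 0 and 1 lower (medians 0.49 and 0.20). Fbln2, the fibulin-2 gene, had a ratio of 12.4 in aged-injury over aged, and Mfap4 at a ratio of 8.62, whereas the crosslinking enzyme gene Loxl1 was at 0.530, and Efemp1 at 0.459 in naive over control. Among small leucine-rich proteoglycans other than Fmod, 5 of 11 and 2 of 10 were higher (medians 0.87 and -0.35). Chad, known from cartilage, was at 130 CPM in aged-injury against 3.25 in aged, and Epyc, another cartilage gene, had a ratio of 31.5. Decorin, Dcn, which like fibromodulin binds collagen fibrils, was at 0.276 in naive over control, and Prelp at 0.517.

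Of 18 other matricellular genes, 5 were at least 2-fold higher and 2 lower in aged-injury over aged, and 4 and 1 in naive over control (medians 0.26 and 0.30). Ccn3 and Ccn4 had ratios of 27.8 and 7.81 in aged-injury over aged, Sparcl1 was at 0.477, and Tgfbi at 0.483 in naive over control. Integrin receptor genes differed less. Of 10, 0 were at least 2-fold higher and 1 lower in aged-injury over aged, and 2 higher in naive over control, Itgb3 at 2.77 and Itga9 at 2.68, while Itga2 was at 0.435 and Itga8, which encodes the alpha chain of the nephronectin receptor, at 0.823 in aged-injury over aged. Of 13 TGF-beta and activin genes, 3 were higher in naive over control (median 0.19), with Inhbb at 3.22 and Inhba at 3.13, and Tgfb3 at 0.660. In aged-injury over aged 2 of 12 were higher (median 0.15) and Smad3 was at 0.711. Contractile genes were led by Actg2, at 106 in aged-injury over aged, and Acta2, at 12.9 there and 14.7 in naive over control, while the list as a whole had medians of -0.12 and -0.02 with 4 of 11 and 1 of 10 higher. Pdgfrb and Tpm1 were at 0.588 and 0.730 in aged-injury over aged.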

How the data were processed

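The count data, whole UMI counts for each gene in each cell without normalisation, were deposited as 1 matrix per library from sorted cells run on a BD Rhapsody instrument. Seurat 5.1 and GRCm39 are named in the submitters' processing notes. How reads were aligned, counted and assigned to cells is not given in the sources used here. Counting by UMI limits amplification bias, but levels of different genes are not compared, since counts are not per length.

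The 9 genes, the gene lists and the markers were chosen with earlier results of these data known, and the rules that turn markers into class names were set after clusters had been seen. Kept cells had 500 genes and 1000 UMIs or more, with under 25% mitochondrial UMIs, and a gene not listed in a library counted as 0. Log counts at 10000 UMIs per cell entered clustering: 2000 variable genes without the 9 were reduced to 30 principal components, and all libraries were clustered together by the Leiden method (resolution 1.0, 15 neighbours) into 37 clusters, without integration. A class name needed at least 3 markers, and a fraction of at least 0.33 of the list, each in at least 10% of cells and 1.5-fold higher than elsewhere, with no other class having more markers among the 10 leading genes. The markers met had to include a marker from the first 3 of the list. A cluster with low median UMIs for its libraries also stayed unnamed if none of the markers was among its 10 leading genes. Unnamed clusters with under 100 CPM of Ptprc and more stromal than other marker RNA counted as stroma. No doublet caller was used, so doublets remain.

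UMIs were summed per library and class and divided by the summed total, as CPM, with exact Poisson 95% intervals. Ratios carry exact conditional binomial intervals, and shares exact Clopper-Pearson intervals. A sum of 0 was bounded by 3 counts. Genes were counted at 2-fold among those with at least 5 CPM in either library. The ratio code was tested on simulated data. All 9 genes are named; from each list the 2 highest and 2 lowest ratios of naive over control or aged-injury over aged are named. Alternatives were TMM scaling, equal weight per cell, no deepest 5% of cells, stricter cell filters, a per-cell gate, named clusters only, reticular-like cells alone, 20 CPM, a 1.5-fold threshold, other clustering and other thinning. Leaving out the chondrocyte-like or the Thbs4-led cluster and holding class shares equal were added after seeing the data. Python 3.11.15, numpy 2.4.6, pandas 2.3.3, scipy 1.17.1, scikit-learn 1.9.0, leidenalg 0.10.2, igraph 0.11.9, matplotlib 3.10.9, and edgeR 4.0.16 in R 4.3.3 for TMM factors only, were used.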

Additional observations from a re-analysis of the deposited data

Results flagged for a closer look

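Postn was singled out in both bone-forming classes because the ratios of the aged and the young pair of libraries lay on opposite sides of 1, clearly so in osteoblast-like cells, while in preosteoblast-like cells the aged pair was about level. In osteoblast-like cells the ratio of CPM was 0.343 in aged-injury over aged and 1.41 in naive over control. In preosteoblast-like cells it was 1.05 in aged-injury over aged and 0.787 in naive over control. The share of this class held by its Spp1-led cluster differed between libraries. Inside that cluster the directions were not those of the class, with aged-injury below aged and naive above control. With 1 library per group the difference between the 2 pairs was not tested. The osteoblast-like values rest on 833 and 40 cells in aged-injury and aged, and on 72 and 66 in naive and control, and the highest level of the 5, 906 CPM, was that of aged.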

How the results depend on the processing

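No paired analysis was possible because each group is 1 library and no comparison gives a test. Of 72 recomputed counts of genes at 2-fold, 66 stayed within 1.5 times the reported count. In aged over control the count was 1, against 0, with cells of at least 1000 genes and under 10% mitochondrial UMIs, with a threshold of 1.5-fold, and with class shares held equal. In aged-injury over naive it was 0 in reticular-like cells alone (of 7 genes measured there, since Cthrc1 and Tnn, both among the 4, were under 5 CPM), 2 without the chondrocyte-like cluster and 1 with class shares held equal, against 4. Of the single values, 308 moved by more than their counting interval, 302 did not and 3 that were at least 2-fold reversed: Fmod (0.504) and Comp (0.493) in aged-injury over naive in reticular-like cells alone, and Comp (0.861) without the chondrocyte-like cluster. The reticular-like Fmod level of aged-injury, 4.41 CPM, was under the 6.21 CPM of its blood cells. Ratios under 2-fold also crossed 1. Col8a2 in exhausted over naive was 0.435 in reticular-like cells alone, against 1.42, and of the 9 genes 4 were above 1 there in the stroma, but 2 without the Thbs4-led cluster or with named clusters only, 1 with class shares held equal, and 1 of 7 in reticular-like cells alone. The causes of the changes in the filtered and thresholded counts were not tested; the others follow from the cells left out or reweighted. The main limit is that 1 library per group gives no spread between animals. Levels of classes with few cells, such as the 35 Thbs4- and Ccn3-led cells of naive, rest on a handful of cells rich in these UMIs, so their intervals are too narrow.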

Other observations

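In the reticular-like cluster led by Cxcl9, which was 19.0% of the class in aged-injury and 0.814% to 3.51% in the other libraries, Col8a2 was at 38.4 CPM in aged-injury and 33.2 in naive, with 0 UMIs in aged, which allows up to 1.74 CPM by the floor of 3 counts. In the cluster led by Nog, a preosteoblast-like cluster, Col8a2 was at 68.2, 87.4, 81.7, 10.1 and 7.96 CPM in aged-injury, exhausted, naive, aged and control, and Fn1 at 242, 187, 275, 5.07 and 24.4 CPM. In the same cluster Postn was at 101, 62.8, 60.1, 59.2 and 75.9 CPM, with no such gap between ablated and uninjured libraries. In the preosteoblast-like cluster led by Spp1, Postn was highest in aged, at 1244 CPM, against 935 in aged-injury, 726 in exhausted, 764 in naive and 667 in control.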
